A study of Drosophila melanogaster with 5 samples.

Results

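Wingless ligands, receptors and feedback targets were followed across tumors and control tissue of the Drosophila eye-antennal imaginal disc, the larval epithelium that forms the eye, antenna and head capsule. The set named 10 genes by symbol: the ligand genes wg, Wnt2, Wnt4 and Wnt6, the receptor genes fz, fz2 and fz3, the co-receptor gene arr, and the feedback genes nkd and Notum. Members were taken where a probe set named exactly 1 gene and its current symbol was on that list. This left 3 of the 10, namely Wnt6, nkd and Notum, out of 11981 genes with such a probe set, and each had 1 probe set. The other 7 (wg, Wnt2, Wnt4, fz, fz2, fz3 and arr) were not analysed here, so the values below concern 1 ligand gene and 2 feedback genes and no receptor.

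Total RNA from eye-antennal tissue of third-instar larvae was measured on 5 arrays, 1 for each group. In 3 of them Ras overexpression was combined with a further mutation: Sras mutant 1, Sras mutant 2, or a scrib mutant, the positive control of the design. The fourth held tumors that overexpressed Ras and nothing else (Ras below), and the fifth was the WT control, which the labels call 79E control. Clones were marked with GFP by MARCM, a recombination method that leaves GFP-positive mutant cells among unmarked ones. All groups but the WT control carry Ras overexpression, so the Ras array is the control for what each mutation adds. The sources used here do not name the Sras and scrib alleles, the Ras transgene and its driver, or how many larvae were pooled.

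Wnt proteins such as Wingless and Wnt6 are lipid-modified secreted ligands. They bind Frizzled receptors together with the co-receptor Arrow, which stops the destruction complex from breaking down Armadillo, and Armadillo then acts in the nucleus with the DNA-binding protein Pangolin. The pathway restrains itself: Naked cuticle, the product of nkd, binds Dishevelled inside the cell, and Notum is a secreted enzyme that removes the lipid from Wnt proteins. In the eye disc, Wingless from the lateral margins keeps the morphogenetic furrow from starting and favours head capsule over retina.

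With 1 array a group there was no spread between replicates, and no test, p-value or error could be given. Values are log2 levels after quantile normalization, with the deposited values beside them where they differ. A log2 difference of 1 is a 2-fold change. The only guide to noise was the pair of Sras arrays, whose difference had an SD of 0.243 log2 over the 7850 genes kept by a filter on dim genes. That pair compares 2 mutants and is no replicate spread. All 3 members passed the filter, which asked that the highest of the 5 values reach 6.36.

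The arrays differed in RNA of tissue outside the disc. The glue genes Sgs3, Sgs7 and Sgs8, which define salivary gland, read 5.63 to 7.49 in Sras mutant 1 and scrib, 9.22 to 10.75 in Sras mutant 2, and 14.53 to 14.81 in Ras and WT control. The mean level of 7 measured salivary gland markers (of 7 listed) was 6.55, 8.86 and 6.09 in Sras mutants 1 and 2 and scrib, against 13.21 in Ras and 13.43 in WT control. For 7 muscle markers of 11 it was 7.24, 6.91 and 6.62 in those 3 arrays, against 10.23 in Ras and 10.04 in WT control. For 3 fat body markers of 6 it was 9.52, 11.59 and 9.13, against 13.27 in Ras and 13.49 in WT control. For 8 hemocyte (blood cell) markers of 8 it was 8.18, 7.82 and 7.98, against 8.49 in Ras and 9.66 in WT control. All 8 were lower in Ras than in WT control, 4 of them at least 2-fold, against 1.36% of all kept genes. The Hox gene Antp, which marks the thorax, read 4.26, 4.46 and 4.38 in the mutant arrays, below the filter value, against 7.74 in Ras and 7.41 in WT control. It is 1 of 7 measured markers (of 8) of wing, leg and haltere discs, whose mean level was 6.81, 6.99 and 6.32 in Sras mutants 1 and 2 and scrib, against 7.69 in Ras and 7.58 in WT control. Of the 6 kept, 4 lay below Ras and 2 above it in each mutant array: vg and nub were above in the Sras arrays, ap and tup in scrib. The eye genes ey, eya, so and dac read 10.04 to 11.13 in both Sras arrays and 8.55 to 10.65 in Ras and WT control, so the labelled eye tissue was present. In the scrib array eya and so read 6.66 and 6.59, near the filter value, and dac read 7.99 (−2.50 from Ras), while ey read 9.37. Of all 12 measured eye and antennal identity genes, 7 lay above Ras and 5 below it in scrib, with a median of 0.31. For 3 control transcripts (actin, GAPDH and eIF-4a), the 3′ probe set exceeded the 5′ one by 1.40 on average in Ras, against 0.91, 0.88 and 0.88 in the mutant arrays and 1.00 in WT control. Each comparison of a mutant array with Ras or WT control moves together with the tissue markers, and each comparison with Ras with the control probe sets as well. Ras minus WT control moves together with the hemocyte markers. The part of these markers and control probe sets in the results was not tested.

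Wnt6, the only ligand gene measured, was higher in all 3 mutant arrays than in Ras and WT control, except that centring the arrays on eye and antennal identity genes put both Sras arrays below them. It read 8.72 in Sras mutant 1, 8.82 in Sras mutant 2 and 8.97 in scrib, against 8.17 in Ras and 8.34 in WT control. All 3 mutant readings therefore lay above both Ras and WT control. How many of all kept genes share that order was not counted, so whether it is particular to Wnt6 is unknown. From Ras, Wnt6 lay 0.55 higher in Sras mutant 1 (1.46-fold), 0.65 higher in Sras mutant 2 (1.57-fold) and 0.80 higher in scrib (1.74-fold). From WT control the differences were smaller, at 0.38, 0.48 and 0.63 in the same order. Ras itself lay 0.17 below WT control (−0.17), less than the 0.243 of the Sras pair. In the order of levels, WT control and Sras mutant 1 were the only neighbours further apart than that SD. A share of 15.3% of kept genes had a higher difference than Wnt6 in Sras mutant 1 minus Ras, 11.8% in Sras mutant 2 minus Ras and 14.2% in scrib minus Ras. Wnt6 thus stood in the upper part of each distribution and not at its end. In these whole-tissue samples, fewer cells of a type and less RNA per cell cannot be told apart, here and for every gene below.

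The feedback gene nkd was higher in the Sras arrays than in scrib, an order that the eye and antennal centring turned. It read 10.34 in Sras mutant 1, 10.41 in Sras mutant 2 and 9.51 in scrib, against 9.84 in Ras and 9.61 in WT control. Both Sras arrays were the highest, and scrib was the lowest of all 5, though array median centring put it 0.13 above WT control. From Ras, nkd lay 0.50 and 0.57 higher in Sras mutants 1 and 2 (1.41-fold and 1.48-fold) and 0.34 lower in scrib (−0.34). From WT control it lay 0.73 and 0.80 higher in the Sras arrays, while scrib (−0.10) and Ras (0.23) were each within 0.243 of it. Set against scrib, nkd was 0.83 higher in Sras mutant 1 (1.78-fold) and 0.90 higher in Sras mutant 2 (1.87-fold). Of all kept genes, 9.7% and 8.9% had a higher difference in those comparisons. Tissue markers moved with them: all 10 kept photoreceptor and furrow markers were at least 2-fold higher in both Sras arrays than in scrib, with medians of 2.32 and 2.34, and the salivary gland markers had medians of 0.62 and 3.57. Their part in the nkd difference was not tested. Ras and Sras mutant 1 were the only neighbours in the order of nkd levels that lay further apart than 0.243. Deposited values gave nearly the same differences from scrib, 0.87 and 0.92.

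Notum, the secreted Wnt deacylase gene, had its highest reading in scrib and was higher in all 3 mutant arrays than in Ras and WT control, again except for the Sras arrays under that centring. It read 7.30 in Sras mutant 1, 7.18 in Sras mutant 2 and 7.66 in scrib, against 6.48 in Ras and 6.43 in WT control. Ras and WT control were barely above the filter value of 6.36, and all 3 mutant readings lay above them. The share of all kept genes with that order was not counted. From Ras, Notum lay 0.81 higher in Sras mutant 1 (1.76-fold), 0.70 higher in Sras mutant 2 (1.62-fold) and 1.17 higher in scrib (2.25-fold). From WT control it lay 0.86, 0.75 and 1.22 higher. Ras and WT control differed by 0.05, or by −0.06 with centring on ribosomal protein genes. Close to background an array can compress differences, and whether it did so here was not tested. Shares of 6.9%, 10.5% and 6.6% of kept genes lay higher than Notum in the comparisons of Sras mutants 1 and 2 and scrib with Ras.

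The 2-fold reading of Notum in scrib rested on the normalization. As deposited, Notum read 7.30, 7.21 and 7.38 in Sras mutants 1 and 2 and scrib, against 6.60 in Ras and 6.56 in WT control. Quantile normalization moved it by 0.27 in scrib and by −0.11 in Ras, more than it moved Wnt6 or nkd in any array. Deposited values put scrib 0.78 above Ras (1.72-fold) and 0.83 above WT control (1.78-fold), under 2-fold in both. The gap between the Sras arrays and scrib was smaller as deposited, −0.08 for Sras mutant 1 and −0.18 for Sras mutant 2, against −0.36 and −0.48 after normalization. That Notum was higher in the 3 mutant arrays than in Ras and WT control held in both versions (the eye and antennal centring is the exception); that it was higher in scrib than in the Sras arrays by more than 0.243 did not.

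**Figure D1:**
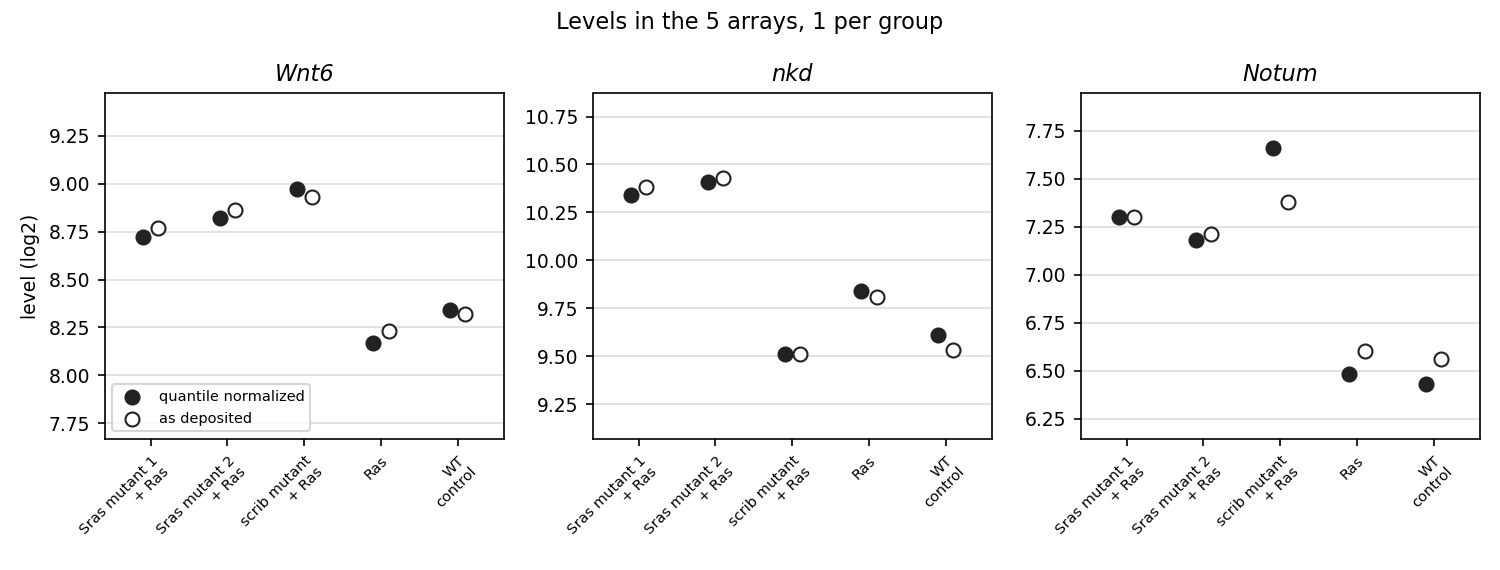
Log2 levels of Wnt6, nkd and Notum in the 5 arrays, 1 point per array, after quantile normalization (filled) and as deposited (open); the vertical axes span the same number of log2 units but start at different levels. Wnt6 and Notum were higher in the 3 mutant arrays than in Ras and WT control, whereas nkd was high in both Sras arrays (10.34 and 10.41) and lowest in scrib (9.51); centring on eye and antennal identity genes turned these orders for the Sras arrays.

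Counted by fold, 0 of the 3 members lay at least 2-fold above or below Ras in either Sras array, where the background of kept genes was 4.09% (higher) and 9.75% (lower) for Sras mutant 1, 4.97% (higher) and 9.92% (lower) for Sras mutant 2. In scrib minus Ras 1 of 3 (Notum) was at least 2-fold higher and 0 were lower, against 9.32% and 14.1% of all kept genes; the 1 was lost with deposited values. At least 1.5-fold above Ras were 1 of 3 members in Sras mutant 1 (Notum; background 13.6%), 2 of 3 in Sras mutant 2 (Wnt6 and Notum; 14.2%) and 2 of 3 in scrib (the same pair; 22.2%). With 3 genes, such counts cannot be set apart from the background. Median differences of the 3 members from Ras were 0.55, 0.65 and 0.80 in Sras mutants 1 and 2 and scrib, where the medians of all kept genes were 0.12, 0.09 and 0.12. The 3 comparisons share the Ras array.

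Ras alone differed little from WT control in this set. None of the 3 members reached 2-fold in Ras minus WT control (0 higher and 0 lower, over a background of 0.701% higher and 1.36% lower), and their differences were −0.17 for Wnt6, 0.23 for nkd and 0.05 for Notum. Against WT control, 0 members passed 2-fold in Sras mutant 1 (background 5.77% higher and 10.5% lower) and 0 in Sras mutant 2 (6.6% higher and 10.8% lower). In scrib 1 of 3 was higher (Notum, again lost with deposited values) and 0 were lower, against 10.5% and 14.8%. Between the mutants, 0 members passed 2-fold in Sras mutant 1 minus scrib (8.04% higher and 4.88% lower over all kept genes) or in Sras mutant 2 minus scrib (8.09% and 4.31%). The Sras arrays differed from each other by −0.11 for Wnt6, −0.07 for nkd and 0.12 for Notum, each below the SD of 0.243.

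**Figure D2:**
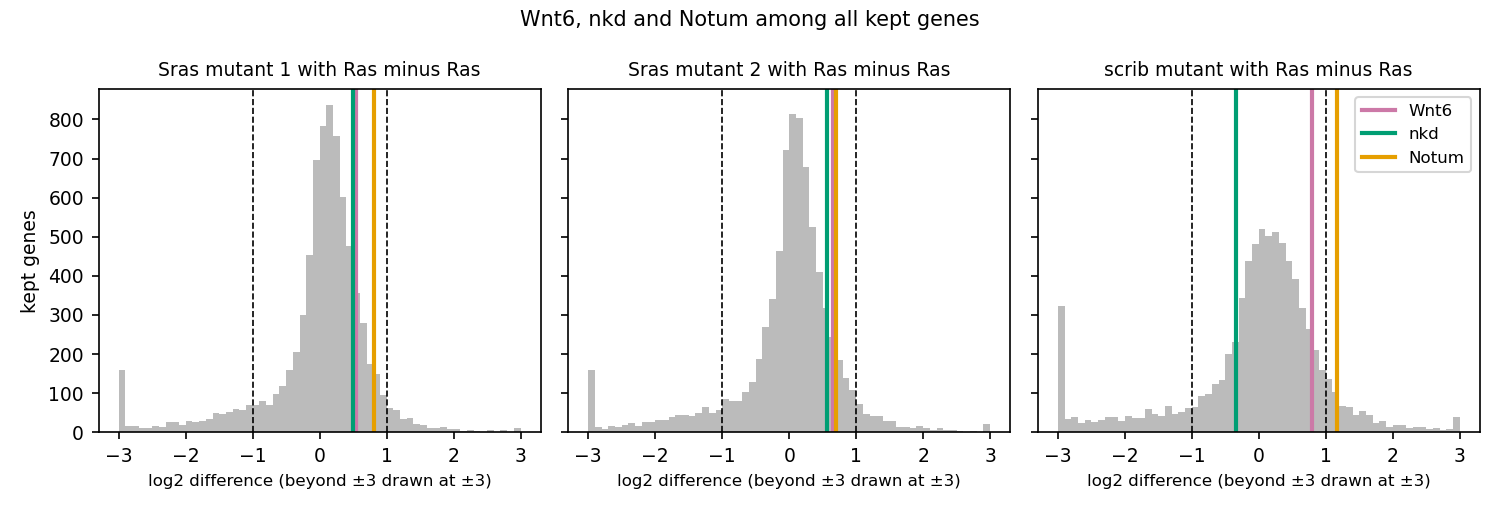
Histograms of the log2 difference from Ras over 7850 kept genes (vertical axis, number of genes) in Sras mutants 1 and 2 and scrib; coloured lines mark Wnt6, nkd and Notum, dashed lines mark 2-fold, and differences beyond the axis are drawn in the end bins. The 3 lines lie together at 0.50 to 0.81 in both Sras panels and apart in scrib, from −0.34 for nkd to 1.17 for Notum.

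The direction of these differences was read against 5 scalings of the arrays. Centring each array on 12 eye and antennal identity genes turned the raw sign of nkd in scrib, to 0.71, and of all 3 members in both Sras arrays, to −0.72 and −0.52 for Wnt6, −0.69 and −0.53 for nkd, and −0.56 and −0.53 for Notum. That centring moved the median of all kept genes too, to −1.15 and −1.07 in Sras mutants 1 and 2, and to 1.10 in scrib. The 12 genes themselves averaged 9.93 and 9.92 in Sras mutants 1 and 2, with 8.41 in scrib, against 9.03 in Ras, and are not a neutral scale. Relative to the median of all kept genes, Wnt6 lay 0.41 to 0.43 above it in Sras mutant 1 minus Ras, 0.55 to 0.57 in Sras mutant 2 and 0.62 to 0.68 in scrib over the 5 scalings. On the same relative scale nkd lay 0.38 to 0.46 and 0.48 to 0.54 above the median in Sras mutants 1 and 2, and −0.45 to −0.35 from it in scrib. Notum lay 0.58 to 0.70, 0.53 to 0.61 and 0.70 to 1.05 above the median in Sras mutants 1 and 2 and scrib. Relative to the typical gene, then, the sign of each member's difference from Ras was the same after quantile normalization and as deposited. The 3 centrings shift each array by a constant, which drops out when the median is subtracted. Their agreement with the deposited values was therefore built in and adds no support.

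**Figure D3:**
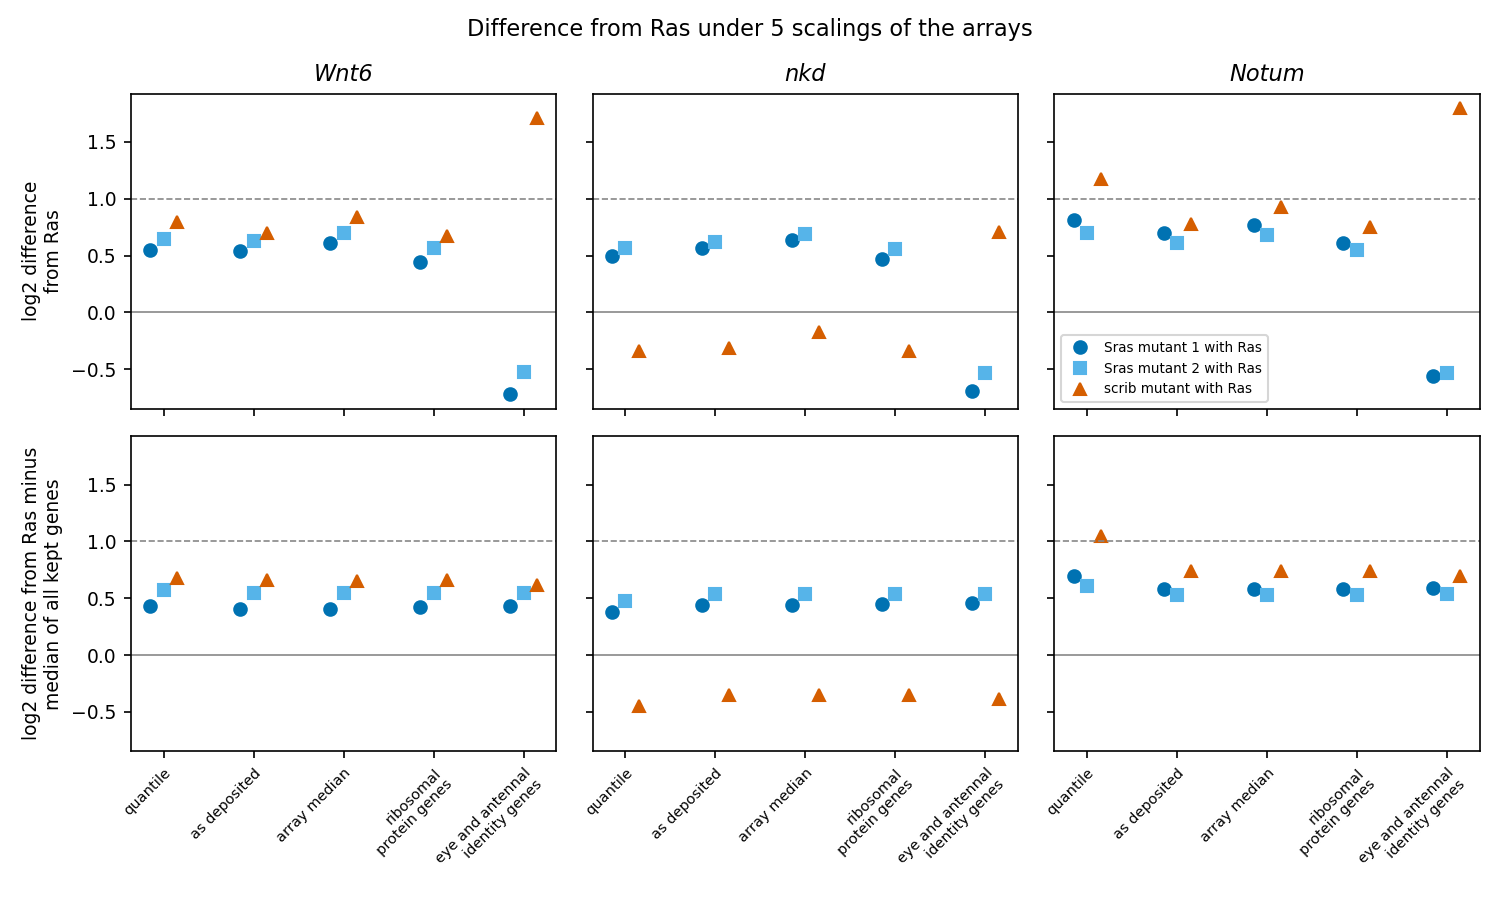
Log2 difference of each mutant array from Ras (vertical axes) for Wnt6, nkd and Notum under 5 scalings of the arrays (horizontal axis), as measured in the upper row and minus the median of all kept genes in the lower row. Centring on eye and antennal identity genes shifts all points in the upper row, to −0.72 for Wnt6 in Sras mutant 1, and in the lower row nkd in scrib is the only series below 0.

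By position, Wnt6 lies in a cluster of Wnt genes, next to wg and Wnt10 in the RefSeq annotation (Release 6), neither of which was analysed here. The nearest kept neighbour, CG5149, lay 0.22, 0.16 and 0.50 from Ras in Sras mutants 1 and 2 and scrib. Both genes beside nkd, SmydA-2 and Acp76A, read 3.89 to 4.56 in all 5 arrays, below the filter value. The genes next to Notum on one side, CG42717 and CG42716, went the opposite way to it. CG42717 read 4.23, 4.22 and 4.23 in the mutant arrays, against 8.92 in Ras and 9.89 in WT control, and CG42716 read 4.40, 4.47 and 3.86, against 8.27 in Ras and 10.50 in WT control. All these mutant readings were below the filter value. Mean levels of salivary gland, muscle and fat body markers were also lower in the mutant arrays. The part of those tissues in the values of CG42717 and CG42716 was not tested. On the other side mRpS31, a mitochondrial ribosomal protein gene 2 places away, differed from Ras by 0.11 and −0.00 in Sras mutants 1 and 2, and by 0.30 in scrib.

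Notum was the only member whose levels spanned at least 1 log2 unit over the 5 arrays (1.22). The named genes whose 5 values, centred on their own mean, lay closest to it were mthl9, Rbm13 and Coq5, with root mean square distances of 0.055, 0.062 and 0.067 log2. For mthl9 the levels were 9.58, 9.59 and 10.09 in Sras mutants 1 and 2 and scrib, against 8.81 in Ras and 8.80 in WT control. With 5 values this describes a pattern and nothing more.

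The rest of the pathway was described with 6 lists of 52 genes, of which 35 had a named probe set and all 35 passed the filter. Against Ras, 2 of the 35 (5.71%) were at least 2-fold higher in Sras mutant 1 and 2 (5.71%) in Sras mutant 2, with 0 lower in either. Of all kept genes, 4.09% and 4.97% were higher and 9.75% and 9.92% lower. In scrib 3 (8.57%) were higher and 8 (22.9%) lower, where the shares of all kept genes were 9.32% and 14.1%. The higher counts are near those shares, which are also the background for each list below. The 8 lower in scrib include Drl-2 and vg, whose second, dimmer probe sets lay at 0.02 and 0.35 from Ras there. Whether the rest exceed the share of all kept genes was not tested. The 2 higher in each Sras array include vg, which passed the filter only through those arrays. The medians of the 35 genes were 0.28, 0.34 and −0.13 in Sras mutants 1 and 2 and scrib, beside 0.12, 0.09 and 0.12 for all kept genes. In Ras minus WT control 0 of the 35 passed 2-fold in either direction, against 0.701% higher and 1.36% lower of all kept genes. The median of the 35 was 0.11, beside 0.02 for all kept genes.

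Secretion and spread of the ligands came first. The gene wls, whose product carries Wnt proteins to the cell surface, read 11.37 in both Sras arrays and 11.02 in scrib, against 11.10 in Ras and 10.97 in WT control. The gene por, for the acyltransferase that attaches the lipid, read 8.81, 8.94 and 8.90 in Sras mutants 1 and 2 and scrib, against 8.63 in Ras and 8.68 in WT control. Neither differed from Ras by more than 0.31 in any mutant array. Swim, for a secreted protein that helps Wingless spread, was lower in scrib, at 8.72 against 9.90 in Ras (−1.18), and read 9.88 and 9.62 in the Sras arrays. It was the 1 of 3 measured genes of that list past 2-fold.

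Among receptor genes outside the Frizzled family, 6 were measured and 0 passed 2-fold in either Sras array. In scrib 1 (otk2) was higher and 2 (drl and Drl-2) were lower, over a background of 9.32% and 14.1%, and the probe sets of Drl-2 disagreed. The Ryk-type receptor gene drl read 11.85 in both Sras arrays and 10.06 in scrib, against 11.37 in Ras and 11.12 in WT control. It was thus highest in the Sras arrays and lowest in scrib, the same order as nkd, with 0.48 in each Sras array and −1.32 in scrib relative to Ras. Its relative Drl-2 lay −1.39 from Ras in scrib, where it read 5.36, below the filter value; its second, dimmer probe set lay at 0.02. The pseudokinase genes otk and otk2 separated: otk was at −0.59, −0.63 and −0.88 from Ras in Sras mutants 1 and 2 and scrib, and otk2 at 0.38, 0.52 and 1.30. The glypican gene dlp, whose product holds Wingless at the cell surface, lay 0.41, 0.66 and 0.51 above Ras.

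Genes of the cytoplasmic and nuclear steps were measured in part, 10 of 18. In the destruction complex list (5 of 10 measured) 0 genes passed 2-fold in any mutant array, with medians of 0.08, 0.05 and −0.13 in Sras mutants 1 and 2 and scrib. The scaffold gene Axn lay at 0.08, 0.05 and −0.34, and slmb, for the F-box protein that marks Armadillo for breakdown, at −0.08, −0.06 and −0.51. The kinase gene gish had the highest differences of that list, 0.54, 0.70 and 0.70. In the nuclear list (5 of 8 measured) 0 genes passed 2-fold either, with medians of 0.18, 0.14 and −0.17. The co-repressor gene CtBP lay at 0.66, 0.66 and 0.36, and the co-repressor gene gro at 0.06, 0.02 and −0.19.

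Genes described as Wingless targets in discs set the Sras arrays and scrib further apart, by median, than the other 5 lists. Of 11 measured (of 13 listed), 2 were at least 2-fold above Ras in both Sras arrays and 0 below, whereas 1 was above and 4 were below in scrib. The background in kept genes was 4.09% and 4.97% higher and 9.75% and 9.92% lower for Sras mutants 1 and 2. For scrib it was 9.32% higher and 14.1% lower. Of these genes, vg passed the filter only through the Sras arrays, and its probe sets disagreed in scrib, which leaves 1 above in the Sras arrays (Doc3) and 3 below in scrib (Dll, bi and sens). The list medians from Ras were 0.51, 0.59 and −0.41 in Sras mutants 1 and 2 and scrib. Over the 5 scalings and relative to all kept genes, these medians ranged from 0.40 to 0.42, from 0.50 to 0.55 and from −0.85 to −0.53. The 3 centrings nearly repeat the deposited values here by construction, so these ranges in the main compare quantile normalization with deposited values. Against scrib, 7 of the 11, vg included, were at least 2-fold higher in each Sras array and 1 was lower, where 8.04% and 8.09% of all kept genes were higher and 4.88% and 4.31% lower. These genes also respond to other signals and to disc identity. Photoreceptor and furrow markers (11 of 11 measured) averaged 8.90, 8.78 and 6.60 in Sras mutants 1 and 2 and scrib, against 8.59 in Ras and 8.42 in WT control. These markers and 6 of the 11 targets were lowest in the same array, scrib, and the part of the markers in the difference was not tested.

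The T-box genes of the Dorsocross group were among the highest targets in the Sras arrays. Doc3 read 8.85 in Sras mutant 1, 9.12 in Sras mutant 2 and 7.66 in scrib, against 7.56 in Ras and 7.30 in WT control. Relative to Ras it was at 1.29 and 1.56 in Sras mutants 1 and 2, but at 0.10 in scrib. Its relatives Doc1 (0.76, 0.89 and −0.41) and Doc2 (0.92, 0.91 and −0.75) lay above Ras in the Sras arrays too, but below it in scrib, where Doc2 read 5.93 in scrib, below the filter value. The wing selector gene vg read 7.42 and 7.44 in Sras mutants 1 and 2, with 5.06 in scrib, against 6.29 in Ras and 6.24 in WT control, which are below the filter value. Its brighter probe set lay 1.13, 1.15 and −1.23 from Ras, while the other lay 0.84, 1.12 and 0.35, so the sign in scrib is not settled for vg. The probe sets of mirr disagreed in size, at 0.32 for the brighter and 1.21 for the other in scrib.

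The scrib array was also lowest for the transcription factor genes Dll, bi and sens. Dll, needed for antenna and leg, read 10.10 and 10.24 in Sras mutants 1 and 2, with 7.51 in scrib, against 9.65 in Ras and 9.71 in WT control. Its probe sets lay −2.14, −1.41 and −0.12 from Ras in scrib, the last of them dim. The T-box gene bi read 10.65, 10.48 and 7.53 in Sras mutants 1 and 2 and scrib, against 10.13 in Ras and 9.82 in WT control, and lay −2.61 from Ras in scrib. The zinc finger gene sens, also a photoreceptor gene, read 5.59 in scrib, below the filter value, against 8.09 in Ras (−2.50), and differed from Ras by −0.27 and −0.32 in Sras mutants 1 and 2. The head capsule gene oc went the other way. It read 7.63, 7.48 and 9.05 in Sras mutants 1 and 2 and scrib, against 7.59 in Ras and 7.16 in WT control, 1.46 above Ras in scrib, with 0.04 and −0.10 for Sras mutants 1 and 2.

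**Figure D4:**
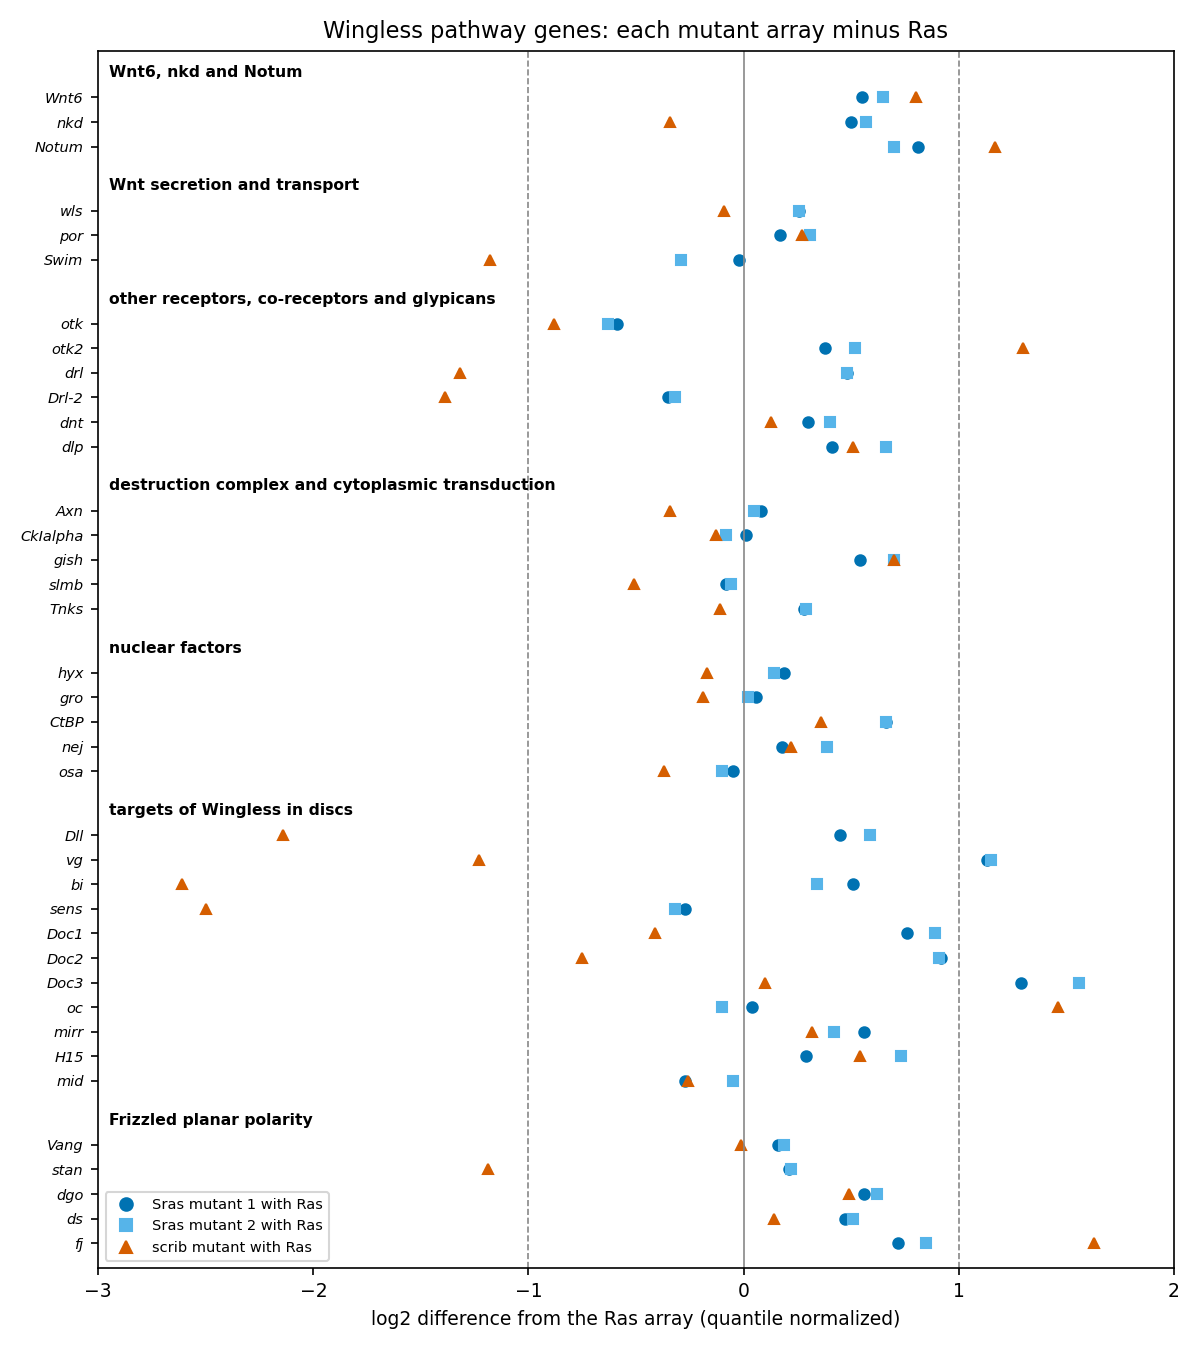
Log2 difference from Ras (horizontal axis, quantile normalized) of Wnt6, nkd, Notum and 35 other Wingless and Frizzled pathway genes, 1 point for each mutant array; dashed lines mark 2-fold. The Sras points lie close to each other for nearly every gene, while scrib lies far to their left for bi (−2.61), sens (−2.50) and Dll (−2.14) and to their right for fj (1.63), oc (1.46) and otk2 (1.30).

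Frizzled also directs planar polarity, the common orientation of cells in an epithelium. Of 5 measured genes of that branch (of 7), 0 passed 2-fold in the Sras arrays. The background in kept genes was 4.09% and 4.97% higher and 9.75% and 9.92% lower for Sras mutants 1 and 2. All 5 lay above Ras there, with medians of 0.47 and 0.51, beside 0.12 and 0.09 for all kept genes. All 5 also lay above WT control in the Ras array, with a median of 0.31, beside 0.02 for all kept genes. The share of all kept genes above 0 in these comparisons was not counted. In scrib 1 was higher than Ras and 1 lower, against 9.32% and 14.1% of all kept genes. The gene fj, for a Golgi kinase acting on cadherins, read 10.82, 10.94 and 11.72 in Sras mutants 1 and 2 and scrib, against 10.09 in Ras, 0.72, 0.85 and 1.63 above Ras. The atypical cadherin gene stan lay at 0.21 and 0.22 in Sras mutants 1 and 2, but at −1.19 in scrib, where it read 9.44 against 10.63 in Ras and 10.21 in WT control. The low photoreceptor markers of the scrib array stand beside these values too, and their part was not tested.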

How the data were processed

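The values analysed are those the authors deposited, on a log2 scale, for 18952 probe sets on 5 arrays (1 per group). Their range, 3.32 to 14.89, is the basis for calling them log2; how they were background-corrected, normalized and summarised was not given in the sources used here. Array medians differed by 0.153, above a limit of 0.1, so the arrays were quantile normalized over probe sets other than the 183 controls. Of the probe sets, 13646 named 1 gene, 402 several, and 4721 were unnamed here. Gene identifiers gave current symbols from RefSeq (Release 6) for 13543. The brightest probe set stood for a gene, and 7850 of 11981 genes whose highest value reached the 40th percentile (6.36) were kept. With 1 array per group no test was possible; the number of arrays limits the precision. The members, gene lists and alternatives were chosen with earlier results of these data known. Named genes were all members, genes of the fixed pathway lists, defining tissue markers, Antp and, for members spanning at least 1 log2, the 3 named genes with the nearest profile; genes neighbouring the members were added after the values were seen. Counting past 2-fold was checked on simulated data, with as many genes raised as lowered and fewer changed genes than in the mutant arrays. That check therefore does not bear on shifts from quantile normalization such as that of Notum in scrib. Alternatives were deposited values, 3 centrings (array median, 41 ribosomal protein genes, 12 eye and antennal identity genes), no filter or a stricter one, averaging all probe sets of a gene, and 1.5-fold and 3-fold thresholds. Python 3.11.15, NumPy 2.4.6, pandas 2.3.3 and matplotlib 3.10.9 were used.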

Additional observations from a re-analysis of the deposited data

Results flagged for a closer look

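With 1 array per group, differences between the mutant kinds were not tested. The member nkd was higher than Ras in both Sras arrays and lower in scrib, and lay 0.83 (Sras mutant 1) and 0.90 (Sras mutant 2) above scrib. Among the other pathway genes, 7 lay on opposite sides of Ras in the Sras arrays and scrib and at least 2-fold apart. For vg this held only for the brighter probe set, and vg passed the filter only through the Sras arrays. The dimmest of the 3 Dll probe sets read 6.24 in Sras mutant 1 and 5.60 in scrib, under 2-fold apart. The share of all kept genes meeting that rule was not counted. On either side of Ras, 8.04% and 8.09% of them were at least 2-fold higher in Sras mutants 1 and 2 than in scrib. In Sras mutant 1 and Sras mutant 2 minus scrib, the differences were 1.80 and 1.79 for drl, 2.59 and 2.73 for Dll, 2.36 and 2.37 for the brighter vg probe set, 3.12 and 2.95 for bi, 1.16 and 1.30 for Doc1, 1.66 and 1.66 for Doc2, and 1.40 and 1.41 for stan. All 10 kept photoreceptor and furrow markers were also at least 2-fold higher in both Sras arrays than in scrib, and their part in these differences was not tested.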

How the results depend on the processing

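No paired analysis was possible because each group has 1 array. Deposited values turned the sign of 0 of 27 member differences, but put Notum under 2-fold in scrib, at 0.78 from Ras and 0.83 from WT control, and moved Sras mutant 1 and Sras mutant 2 minus scrib to −0.08 and −0.18. Array median centring gave 0.93 and 0.99 for scrib minus Ras and minus WT control, and centring on ribosomal protein genes 0.75 and 0.69; ribosomal centring also gave 0.54 and 0.49 for the Sras mutants minus WT control and −0.20 for Sras mutant 2 minus scrib. Under each of these 3 settings 0 members were 2-fold above Ras in scrib; the cause was not tested beyond the shift of Notum itself. The count was also 0 with the stricter filter, which removed Notum, and at 3-fold. Array median centring turned 1 sign (nkd in scrib minus WT control, 0.13) and ribosomal centring 1 (Notum in Ras minus WT control, −0.06). At 1.5-fold there were 1, 2 and 2 members above Ras in Sras mutants 1 and 2 and scrib.

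Centring on eye and antennal identity genes turned 17 of the 27 signs. Differences from Ras in Sras mutants 1 and 2 and scrib were −0.72, −0.52 and 1.71 for Wnt6, −0.69, −0.53 and 0.71 for nkd, and −0.56, −0.53 and 1.80 for Notum, with 2 members past 2-fold in scrib. Differences from WT control were −1.05, −0.84 and 1.38 for Wnt6, −0.66, −0.49 and 0.74 for nkd, and −0.76, −0.74 and 1.59 for Notum. Sras mutants 1 and 2 minus scrib were −2.44 and −2.23 for Wnt6, −1.40 and −1.23 for nkd, and −2.36 and −2.33 for Notum, whose Ras minus WT control was −0.20. This centring moved the median of all genes too: higher genes made up 0.483%, 0.988% and 88.4% of those past 2-fold from Ras in Sras mutants 1 and 2 and scrib, against 29.6%, 33.4% and 39.7%. Raw counts under this centring follow from that shift.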
